A study of Mus musculus with 18 samples.

Results

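The data described here are the cerebella of wild-type mice taken 6 h after paraquat or saline, 6 of the 18 arrays of a study of apolipoprotein D (ApoD), a lipid-binding lipocalin. The members were chosen from the titles: the 3 arrays of wild-type mice given paraquat, replicates 1 to 3, and the 3 arrays of wild-type mice whose titles name no paraquat, which the protocol makes the saline group. The wild-type paraquat group was adult males of 80 ± 5 days that had received paraquat at 30 mg/kg intraperitoneally in 200 µl of saline, and the wild-type saline group was males of the same age given saline. The strain is not given in the sources used here. The other arrays came from ApoD knock-out mice and from transgenic mice over-expressing ApoD in neurons, each under both treatments with 3 arrays a group. Each array measured RNA pooled from 3 mice, so that the 3 arrays of a group stand for 9 mice, and every p-value given here rests on the spread between pools, not between single animals. The design asks what the tissue does early in oxidative stress, and wild-type mice are its baseline.

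Paraquat is a herbicide that is reduced inside cells by electron donors such as NADPH-dependent reductases and then passes the electron to oxygen, which yields superoxide. An injection also acts on the whole animal, and the adrenal hormone corticosterone, released under many kinds of stress, activates the glucocorticoid receptor in neurons, glia and the endothelium of brain vessels. The receptor binds a palindromic DNA element and alters genes of fuel storage, amino acid breakdown, circadian timing and immune restraint. The cerebellum consists mostly of granule neurons, with Purkinje neurons, Bergmann glia, oligodendrocytes, microglia and vessels beside them.

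The 6 wild-type arrays had medians between 7.10 and 7.15 on the deposited log2 scale, and each had a mean correlation of 0.995 to 0.996 with the other wild-type arrays. The pyruvate carboxylase labelling control, which reports how complete the transcripts were, read higher at its 3′ than its 5′ probe set by 2.97 to 3.16 on the paraquat arrays and by 2.85 to 2.95 on the saline arrays; whether this difference bears on any result was not tested. The defining cerebellar markers Gabra6, Zic1, Cbln1, Pcp2, Calb1 and Car8 stood at or above the 98.8th percentile of all probe sets on the 6 arrays, Neurod1 between 94.9 and 96.7 and Gdf10 between 88.4 and 92.1. Ttr, which marks choroid plexus, reached 14.4 to 14.5 and so was in every pool, while the leukocyte gene Ptprc and the haemoglobin gene Hba-a1 stood at or below the 26.9th percentile. Those readings come from 1 probe set each and do not show whether blood was in the pools. Alas2, the only erythrocyte gene tested, read 7.56, 7.33 and 6.69 under paraquat against 7.31, 7.43 and 7.18 under saline. The second knock-out paraquat array stood apart from the other 17, with a mean correlation of 0.971 against 0.986 to 0.993. It is no wild-type array, but it enters the estimate of spread.

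Paraquat changed 166 of 8298 genes tested in wild-type cerebellum, 127 higher and 39 lower. The test was limma's, two-sided, with 6 group means fitted to all 18 arrays, and genes count as called below an adjusted p of 0.05 (Benjamini-Hochberg over all genes tested). The share called was 2% of the genes tested, 1.53% higher and 0.47% lower. Of these, 31 rose and 3 fell by more than 2-fold. The median log2 fold change was 0.70 among the genes called higher, -0.65 among those called lower and 0.016 over all genes tested. Of the 127 genes called higher, 30 belong to a list of 40 measured glucocorticoid targets, none of which was called lower. That is 75% of the list, against 2% of all genes tested. The other 97 and all 39 lower ones lie outside it, but a list of 40 genes could not have held most of the 127. The list was chosen with earlier results of these data known. When only the 6 wild-type arrays were fitted, whose spread was smaller, 845 genes were called, which is 10.2% of those tested, with 538 higher (6.48%) and 307 lower (3.7%). All 166 were among them. The difference between the fits lies in the error term: the median standard deviation within a group was 0.097 for wild-type paraquat and 0.073 for wild-type saline, against 0.236 for knock-out paraquat, 0.064 for knock-out saline, 0.141 for transgenic paraquat and 0.157 for transgenic saline. In the fit of all arrays, the 95% interval reached a median of 0.27 to either side of the log2 fold change. At the threshold, Fam117b was the last gene called, with 0.41 (SE 0.11, adjusted p = 0.049), and Scrg1 the first not called, with 0.48 (SE 0.13, adjusted p = 0.050). In 15 of the 127 genes called higher every saline pool, and in 4 of the 39 called lower every paraquat pool, lay below 6.31, the lowest value that the filter on weak signals accepts, and the size of the change is uncertain there. Those described below are Slc25a13, Map3k6, Tcim, Cth, Tdo2, Notch4, Ada, Angptl4, Lcn2 and Lrg1, weak under saline, and Slc38a5 and Sox21, weak under paraquat. Calls below rest on all 18 arrays unless the wild-type arrays alone are named.

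**Figure D1:**
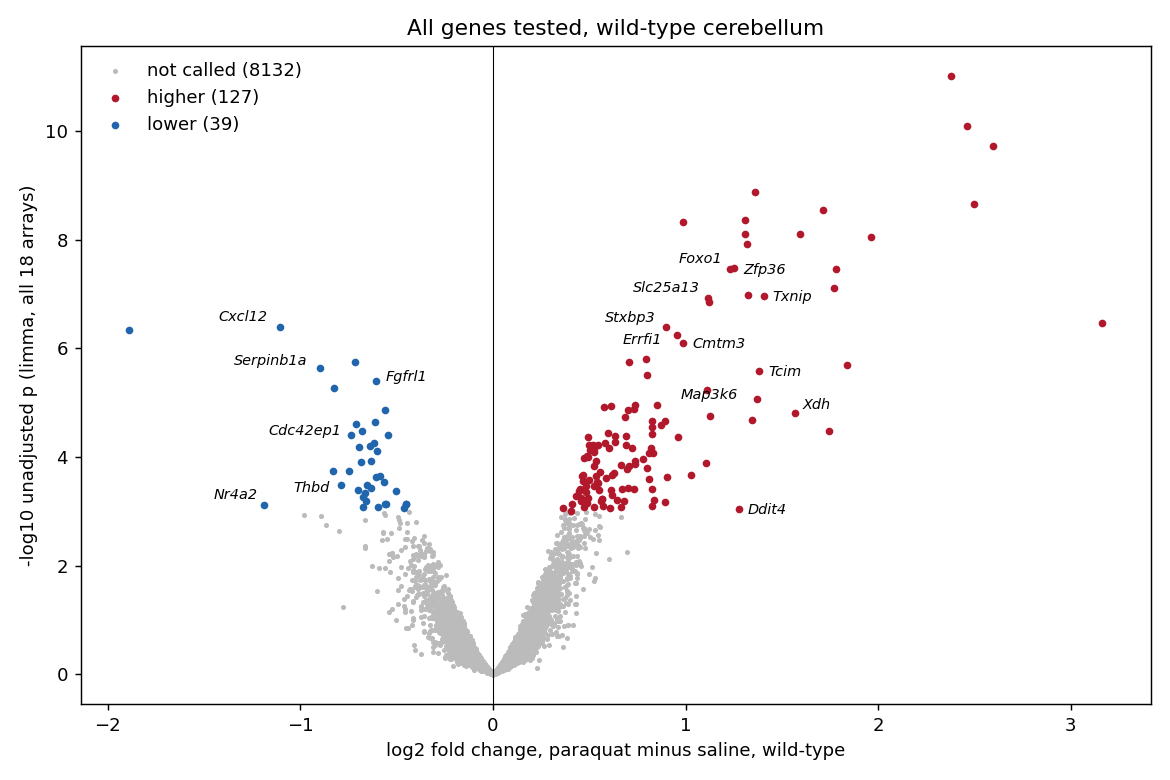
Every gene tested in wild-type cerebellum, with the log2 fold change of paraquat minus saline on the horizontal axis and the negative log10 of the unadjusted p on the vertical axis. The 127 genes called higher reach a log2 fold change of 3.16, whereas the 39 called lower go no further than -1.89. Some of the genes outside the glucocorticoid list are labelled.

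Genes that set how cells use and store glucose were among those that rose. Sgk1, the serum- and glucocorticoid-regulated kinase, which shares targets with the insulin-stimulated kinase AKT, carries the whole binding palindrome of the glucocorticoid receptor in a promoter. That promoter of GRCm38.p6, from RefSeq, at chr10:21993640-21993939 on the + strand, is shown because this palindrome is nearly unique among promoters, with the match in capitals (AGAACA, any 3 bases, TGTTCT), beginning 189 bases before the transcript start.
Sgk1: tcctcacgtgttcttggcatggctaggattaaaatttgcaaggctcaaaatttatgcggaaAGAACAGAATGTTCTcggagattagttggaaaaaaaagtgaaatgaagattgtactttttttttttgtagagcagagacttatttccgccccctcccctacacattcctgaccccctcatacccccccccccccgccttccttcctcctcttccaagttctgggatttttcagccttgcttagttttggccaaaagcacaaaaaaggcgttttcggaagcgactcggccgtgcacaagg

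Sgk1 read 11.50, 11.66 and 11.56 on the paraquat arrays and 10.08, 10.18 and 10.43 on the saline arrays. The lowest paraquat pool was more than 1 log2 unit above the highest saline pool, and the log2 fold change was 1.35 (SE 0.24, adjusted p = 0.0036), which is 2.54-fold. Foxo1, a forkhead factor that insulin signalling keeps out of the nucleus, read 9.03, 9.43 and 9.30 under paraquat against 7.97, 7.99 and 8.12 under saline. It rose by 1.23 (SE 0.14, adjusted p = 1.9e-05), and all 3 of its tested probe sets were called, with log2 fold changes from 0.90 to 1.23; over the mean of all its probe sets the change was 0.77 and still called. Txnip, which binds thioredoxin and limits glucose uptake, read 10.08, 10.17 and 10.19 under paraquat and 8.57, 8.82 and 8.83 under saline, a rise of 1.41 (SE 0.17, adjusted p = 5.0e-05). In these 3 genes the groups were separate in every pool, as they were in all 166 called genes; over all genes tested 28.4% had no overlap between the groups.

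Pdk4, the kinase that shuts pyruvate dehydrogenase and so keeps pyruvate out of the citric acid cycle, rose by 1.11 (SE 0.23, adjusted p = 0.012). Ppp1r3c, which brings protein phosphatase 1 to glycogen, rose by 0.70 (SE 0.15, adjusted p = 0.014), and Klf15, a transcription factor of gluconeogenesis and amino acid breakdown, by 0.72 (SE 0.14, adjusted p = 0.0075). Slc2a1, the glucose transporter GLUT1 of barrier endothelium and glia, read 11.35, 11.30 and 11.32 under paraquat and 10.49, 10.55 and 10.48 under saline. Its 3 probe sets were all called, with log2 fold changes from 0.76 to 0.85. Hk2, the hexokinase that traps glucose in the cell, went the other way and fell by 0.50 (SE 0.12, adjusted p = 0.026). Stxbp3, also known as Munc18c, a syntaxin-binding protein of vesicle fusion, rose by 0.90 (SE 0.12, adjusted p = 0.00015). The 2 inhibitors of the growth kinase mTORC1 that were called, Ddit4 and Sesn1, rose as well. The log2 fold change was 1.28 for Ddit4 (SE 0.33, adjusted p = 0.045), and for Sesn1 it was 0.45 (SE 0.11, adjusted p = 0.026). Ddit4 also had the widest spread here, with 10.39, 10.62 and 10.44 under paraquat against 8.68, 9.34 and 9.60 under saline. Leaving out any 1 of the 6 wild-type arrays ended the calls of Slc2a1 (adjusted p up to 0.081), Ddit4 (up to 0.30), Sesn1 (up to 0.13) and Hk2 (up to 0.14). The mean of its probe sets also ended the call of Sesn1 (0.082). Pdk4 was no longer called without the second paraquat or the first saline array (up to 0.075), Klf15 without the third paraquat array (0.063), and Ppp1r3c without the first or the second paraquat or the first or the second saline array (up to 0.079).

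Across the list of insulin, IGF and FoxO signalling, 3 of 32 tested genes were called, all higher, with a median log2 fold change of 0.002. That is 9.38%, against 2% of all genes tested. Of 28 mTOR and nutrient-sensing genes, 2 were called (7.14%), both higher. Of 29 hypoxia-response genes, 4 were higher (Ddit4, Slc2a1, Hif3a, an inhibitory partner among the hypoxia factors, and Kdm3a, a histone demethylase) and Hk2 was lower, 17.2% in all. Kdm3a was not called with any 1 wild-type array left out (adjusted p up to 0.16), and Hif3a not without the first saline array (0.068) or over the mean of its probe sets, where 0.69 became 0.32 (adjusted p = 0.17).

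Lipid genes beyond the known lipid-droplet responders also rose. Of 26 measured genes of lipid droplets, lipolysis and triglycerides, 5 were called (19.2%, against 2% of all genes), all higher, and the median of the list was 0.10. That count takes in Plin4 (3.16), which is also on the glucocorticoid list, and Angptl4 (1.78). It is therefore no count of genes beyond the known responders. Dgat2, which makes triglyceride, rose by 0.49 (SE 0.10, adjusted p = 0.0097), and Pnpla7, a lysophospholipase, by 0.64 (SE 0.16, adjusted p = 0.036). Eci2, an isomerase of fatty acid oxidation, rose by 0.53 (SE 0.11, adjusted p = 0.0083). It was the only 1 called of 34 measured genes of fatty acid oxidation and ketone metabolism. In the wild-type arrays alone 5 of these were higher and none lower, 14.7% against 10.2% of all genes. Abca1, which exports cholesterol to apolipoproteins, rose by 0.55 (SE 0.12, adjusted p = 0.015). In the sphingolipid pathway Acer2, an alkaline ceramidase of the Golgi that releases sphingosine, rose by 0.82 (SE 0.16, adjusted p = 0.0054). Spns2, which exports sphingosine-1-phosphate from cells, rose by 0.71 (SE 0.11, adjusted p = 0.00051), with paraquat pools at 8.90, 8.99 and 9.18 against saline pools at 8.26, 8.25 and 8.44. Spns2 was called in every alternative run, while Dgat2 was not called without the first paraquat or the first saline array (up to 0.068) and Abca1 was called in that test only without the third paraquat array (0.047, against up to 0.095 for the others). Eci2 was not called without the second saline array (0.060), Acer2 not without the first (0.051), and the call of Pnpla7 did not outlast every such omission. Over the mean of a gene's probe sets Abca1 changed by 0.35 (adjusted p = 0.35) and Dgat2 by 0.33 (adjusted p = 0.11), neither of them called.

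Of 168 solute carriers tested, 4 were higher and 2 lower, 3.57% in all against 2% of all genes, and the median was 0.031. Slc25a13, citrin, which exchanges aspartate for glutamate across the inner mitochondrial membrane, read 6.75, 7.06 and 6.78 under paraquat against 5.74, 5.59 and 5.90 under saline. It rose 2.17-fold (log2 1.12, SE 0.14, adjusted p = 5.1e-05), a size that rests on saline pools below the filter level of 6.31. Slc25a33, a mitochondrial carrier of pyrimidine nucleotides, rose by 0.64 (SE 0.12, adjusted p = 0.0055), with 10.86, 10.71 and 10.73 under paraquat and 10.10, 10.11 and 10.18 under saline. These 2 carriers were called whichever wild-type array was left out. Slc35b3, which carries sulfate donors into the Golgi, rose by 0.50 (SE 0.10, adjusted p = 0.0078) and was not called without the second paraquat or the third saline array (up to 0.073). The fourth carrier called higher was Slc2a1, and both of those called lower belong to barrier endothelium and are described below.

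Of 33 genes of polyamine and amino acid catabolism, 3 were higher and none lower (9.09%, against 2% of all genes), with a median of 0.11. Tdo2, the dioxygenase that opens the kynurenine pathway of tryptophan, rose by 0.84 (SE 0.21, adjusted p = 0.036). Prodh, proline dehydrogenase, rose by 0.68 (SE 0.17, adjusted p = 0.037), and Cth, which makes cysteine from cystathionine, by 0.83 (SE 0.21, adjusted p = 0.043). None of these 3 was called under at least 5 of the 6 omissions of 1 wild-type array, the exceptions being Tdo2 without the third paraquat array (0.033) and Prodh without the third saline array (0.038), and adjusted p went up to 0.21. Called enzymes outside that list included Gnmt, Bbox1 and Chdh, the last 2 of them chosen after their values were seen. Gnmt, glycine N-methyltransferase, which consumes surplus S-adenosylmethionine, read 8.12, 7.68 and 7.82 under paraquat and 6.89, 7.08 and 6.97 under saline, a rise of 0.89 (SE 0.16, adjusted p = 0.0036). Bbox1, which completes carnitine synthesis, rose by 0.60 (SE 0.11, adjusted p = 0.0052), and Chdh, the choline dehydrogenase that leads to betaine, fell by 0.55 (SE 0.10, adjusted p = 0.0055). These 3 calls remained with any 1 wild-type array left out.

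Xdh, the xanthine dehydrogenase that ends purine breakdown and can work as an oxidase, read 8.14, 8.26 and 8.42 under paraquat against 6.49, 6.79 and 6.82 under saline. The rise was 2.97-fold (log2 1.57, SE 0.28, adjusted p = 0.0028). Aox1, aldehyde oxidase, a molybdenum enzyme of the same family, rose by 0.60 (SE 0.12, adjusted p = 0.0075), a call lost without the first paraquat or the second saline array (up to 0.064). Adssl1, which makes adenylosuccinate in the purine nucleotide cycle, rose by 0.63 (SE 0.12, adjusted p = 0.0068), and its paraquat pools, 9.04, 8.95 and 8.97, stood clear of saline pools at 8.36, 8.34 and 8.37. Nt5c3, a nucleotidase that dephosphorylates pyrimidine monophosphates, rose by 0.79 (SE 0.12, adjusted p = 0.00048). Of 23 adenosine and purine genes tested, 4 were higher and none lower (17.4%, against 2% of all genes), with a list median of 0.068. Of 17 genes of superoxide sources and paraquat redox cycling 4 were higher and none lower (23.5%), with a list median of 0.028. The 4 of the last list were Xdh, Aox1, Nqo1 and Nrros, and Nrros is a negative regulator of reactive oxygen species, not a source.

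The genes that NRF2, the main sensor of electrophiles, switches on gave 1 call in 25. This was Nqo1, a quinone reductase, with 6.95, 6.84 and 6.92 under paraquat against 6.52, 6.40 and 6.56 under saline, a rise of 0.41 (SE 0.10, adjusted p = 0.040). The median of the NRF2 list was -0.002, and leaving out any 1 wild-type array ended the Nqo1 call (adjusted p 0.087 to 0.25). Mafk, a small MAF protein that partners NRF2, rose by 0.48 (SE 0.10, adjusted p = 0.010) and was not called without the first or the third paraquat or the first saline array (up to 0.074). Of 48 glutathione transferases and phase II enzymes, 1 was called (2.08%, against 2% of all genes). This was Sult1a1, a sulfotransferase, which rose by 1.77 (adjusted p = 4.0e-05) and was called in every alternative run. In the wild-type arrays alone 8 of the list were higher and 1 lower, 18.8% against 10.2% of all genes. Oxidative phosphorylation genes gave 0 calls of 87 by limma in either fit, with log2 fold changes from -0.07 to 0.28, and 1 had an unadjusted p below 0.05, which 9.93% of all genes tested had.

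**Figure D2:**
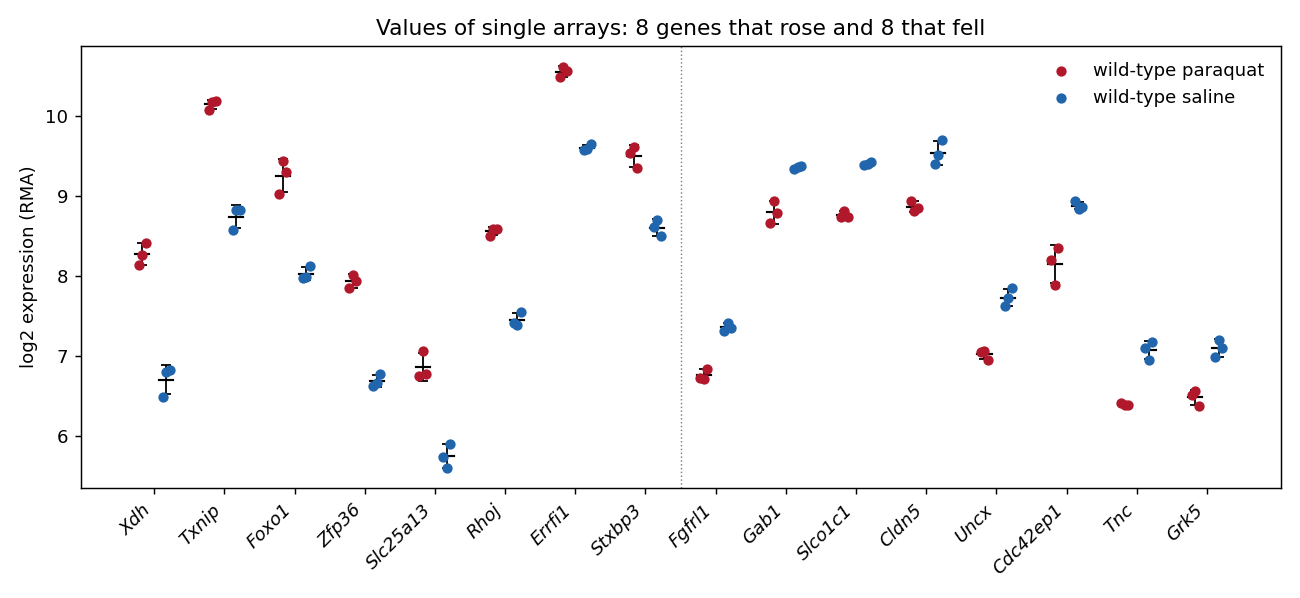
Log2 expression of 8 genes that rose and 8 that fell in wild-type cerebellum, with 1 point per array, the paraquat arrays to the left of the saline arrays of each gene, and the mean with its SD in black (n = 3 pools). In each of the 16 genes the 3 paraquat points and the 3 saline points do not overlap.

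Immediate early and stress-regulator genes split. Zfp36, tristetraprolin, which binds AU-rich elements and speeds the decay of cytokine transcripts, read 7.84, 8.01 and 7.94 under paraquat and 6.62, 6.65 and 6.76 under saline, a rise of 1.25 (SE 0.14, adjusted p = 1.9e-05). Ccn2, a matricellular growth regulator, rose by 0.90 (SE 0.20, adjusted p = 0.018). Nr4a2, an orphan nuclear receptor induced by neuronal activity, read 5.92, 6.69 and 6.53 under paraquat against 7.50, 7.69 and 7.52 under saline, a fall of 1.19 (SE 0.30, adjusted p = 0.041). Arc, whose product sits at synapses, fell by 0.56 (SE 0.14, adjusted p = 0.040). Fos fell by 1.89 (adjusted p = 0.00016) and Nr4a1 by 0.83 (adjusted p = 0.0013), and both were called in every alternative run. In the immediate early list, 3 of 28 tested genes were higher and 4 lower (25%, against 2% of all genes), with a median of 0.015. In the wild-type arrays alone 7 were higher and 7 lower (50%, against 10.2%). Leaving out any 1 wild-type array ended the call of Nr4a2 (adjusted p 0.058 to 0.27), and Arc did not keep its call in every such omission. Ccn2 was called in that test only without the third saline array (0.044, against up to 0.10 for the others).

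Among other regulators, Cebpb, a C/EBP factor of acute-phase genes, rose by 0.80 (SE 0.17, adjusted p = 0.014), and Tsc22d3, the anti-inflammatory leucine zipper GILZ, by 1.13 (SE 0.20, adjusted p = 0.0032). Map3k6, a stress-activated kinase at the head of a MAP kinase cascade, read 6.76, 6.32 and 6.62 under paraquat and 5.17, 5.11 and 5.31 under saline, a rise of 1.37 (SE 0.23, adjusted p = 0.0019). Tcim, named the transcriptional and immune response regulator, rose by 1.38 (SE 0.21, adjusted p = 0.00067), with 6.73, 6.79 and 7.21 under paraquat and 5.39, 5.61 and 5.59 under saline. For Map3k6 and Tcim the saline pools lay below 6.31, so that the size of both rises is uncertain. Xpa, which verifies damage in nucleotide excision repair, rose by 0.70 (SE 0.12, adjusted p = 0.0025). Of 25 p53 targets, 3 were higher and none lower, 12% against 2% of all genes tested. In the wild-type arrays alone 8 were higher and none lower, 32% against 10.2%. The largest rise of the p53 list was that of Cdkn1a (2.59), which is also on the glucocorticoid list. Cebpb was not called without the first or the third paraquat or the second or the third saline array (up to 0.11).

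Several components and an inhibitor of growth-factor signalling through receptor tyrosine kinases fell, while an inhibitor of the EGF receptor and the receptor Mertk rose. Errfi1, or Mig6, which binds and shuts off the EGF receptor, read 10.48, 10.62 and 10.57 under paraquat against 9.57, 9.58 and 9.65 under saline, a rise of 0.96 (SE 0.13, adjusted p = 0.00019), and both of its probe sets were called. Fgfrl1, a member of the FGF receptor family without a kinase domain, read 6.72, 6.70 and 6.84 under paraquat against 7.31, 7.41 and 7.35 under saline, a fall of 0.61 (SE 0.10, adjusted p = 0.00096). Gab1, the docking protein that links receptors to PI3 kinase and SHP2, read 8.66, 8.94 and 8.78 under paraquat against 9.33, 9.36 and 9.37 under saline, a fall of 0.56 (SE 0.10, adjusted p = 0.0025). For these 3 genes no omission of 1 wild-type array ended the call. Fgfr2, an FGF receptor of glia, fell by 0.69 (SE 0.14, adjusted p = 0.011), and Etv5, an ETS factor that FGF signals switch on, by 0.68 (SE 0.16, adjusted p = 0.033). Spred2, an inhibitor of RAS to ERK signalling, fell by 0.61 (SE 0.14, adjusted p = 0.018), and Ccnd1, the cyclin that carries growth signals into the cell cycle, by 0.56 (SE 0.14, adjusted p = 0.040). The receptor tyrosine kinase Tyro3 fell by 0.67 (SE 0.17, adjusted p = 0.044). Mertk, another receptor tyrosine kinase, went the other way and rose by 1.31 (adjusted p = 6.6e-06), a call kept in every alternative run. Of 19 MAPK feedback inhibitors tested, Errfi1 was higher and Spred2 lower (10.5%, against 2% of all genes), with a list median of -0.08. In the wild-type arrays alone 1 was higher and 4 lower (26.3%, against 10.2%). The cyclin and CDK list, 67 genes matched by a pattern of names, held 1 gene called higher and 2 lower (4.48%). The lower ones were Ccnd1 and Cdc42ep1. The pattern took in Cdc42ep1, although it is an effector of the GTPase CDC42 and no cyclin or CDK. Leaving out any 1 wild-type array ended the calls of Etv5 (adjusted p up to 0.15) and Tyro3 (up to 0.24). Fgfr2 was not called without the first paraquat or the first or the second saline array (up to 0.080), Spred2 was called in that test only without the second paraquat array (0.049, against up to 0.12), and Ccnd1 likewise (0.046, against up to 0.25). Over the mean of a gene's probe sets Ccnd1 changed by -0.30 (adjusted p = 0.16) and Fgfr2 by -0.64 (adjusted p = 0.061), neither of them called, while Spred2 changed by -0.40 and was called.

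Of 40 endothelial and blood-brain barrier genes tested, 7 were lower and 3 higher (25%, against 2% of all genes). In the wild-type arrays alone 9 were lower and 7 higher (40%, against 10.2%). The median log2 fold change of the list was -0.16 against 0.016 over all genes tested. Cldn5, the claudin that seals the tight junctions of brain endothelium, read 8.94, 8.81 and 8.85 under paraquat against 9.39, 9.51 and 9.69 under saline, a fall of 0.67 (SE 0.16, adjusted p = 0.029). Slco1c1, which carries thyroxine across the barrier, read 8.74, 8.81 and 8.73 under paraquat against 9.38, 9.40 and 9.42 under saline, a fall of 0.64 (SE 0.13, adjusted p = 0.0073). The saline pools of Slco1c1 lay within 0.04 of each other and every paraquat pool was lower. Thbd, thrombomodulin, which turns thrombin from clotting to anticoagulation, fell by 0.79 (SE 0.18, adjusted p = 0.023), with 7.03, 6.66 and 6.93 under paraquat against 7.49, 7.62 and 7.88 under saline. Slc38a5, a glutamine transporter whose paraquat pools lay below 6.31, fell by 0.65 (SE 0.15, adjusted p = 0.023), and Sox18, an endothelial SOX factor, by 0.63 (SE 0.15, adjusted p = 0.025). Ndp, norrin, a ligand for vessel growth and barrier maintenance made by glia, fell by 0.59 (SE 0.13, adjusted p = 0.018). Slco1c1 was called with any 1 wild-type array left out, but leaving out any 1 ended the calls of Cldn5 (adjusted p 0.058 to 0.18) and Sox18 (0.069 to 0.13). Thbd was not called without the second or the third paraquat or the second or the third saline array (up to 0.16), Slc38a5 not without those or the first saline array (up to 0.14), and Ndp not without the third paraquat or any saline array (up to 0.13).

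Other genes of vessels or coagulation rose. The list of 40 held 3 genes called higher, so not all of those named here are on it. Pglyrp1, a peptidoglycan recognition protein, rose by 0.87 (SE 0.16, adjusted p = 0.0040), Ramp2, the partner of the adrenomedullin receptor, by 0.83 (SE 0.19, adjusted p = 0.026), and Slc2a1 as above. Rhoj, a small GTPase of endothelial cells, read 8.50, 8.59 and 8.59 under paraquat against 7.41, 7.38 and 7.55 under saline, a rise of 1.11 (SE 0.18, adjusted p = 0.0013). Notch4, an endothelial Notch receptor, rose by 0.78 (SE 0.16, adjusted p = 0.011), Col4a1, a collagen of basement membranes, by 0.73 (SE 0.15, adjusted p = 0.011), and F3, tissue factor, which starts coagulation, by 0.66 (SE 0.14, adjusted p = 0.013). The mean log2 level of the endothelial list was 8.18, 8.15 and 8.18 on the paraquat arrays against 8.26, 8.31 and 8.33 on the saline arrays, lower on every paraquat array. Its summed linear level was 22883, 22490 and 23350 on the paraquat arrays against 23373, 23274 and 24255 on the saline arrays, and these ranges overlap. In a whole tissue, fewer cells of a type and less RNA per cell cannot be told apart. Pglyrp1 and Rhoj were called with any 1 wild-type array left out. Ramp2 was not called without the first or the third paraquat or the first or the second saline array (adjusted p up to 0.17), Col4a1 not without the second or the third paraquat or the first or the second saline array (up to 0.070), Notch4 not without the first or the third paraquat or the second saline array (up to 0.10), and F3 not in every such omission.

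**Figure D3:**
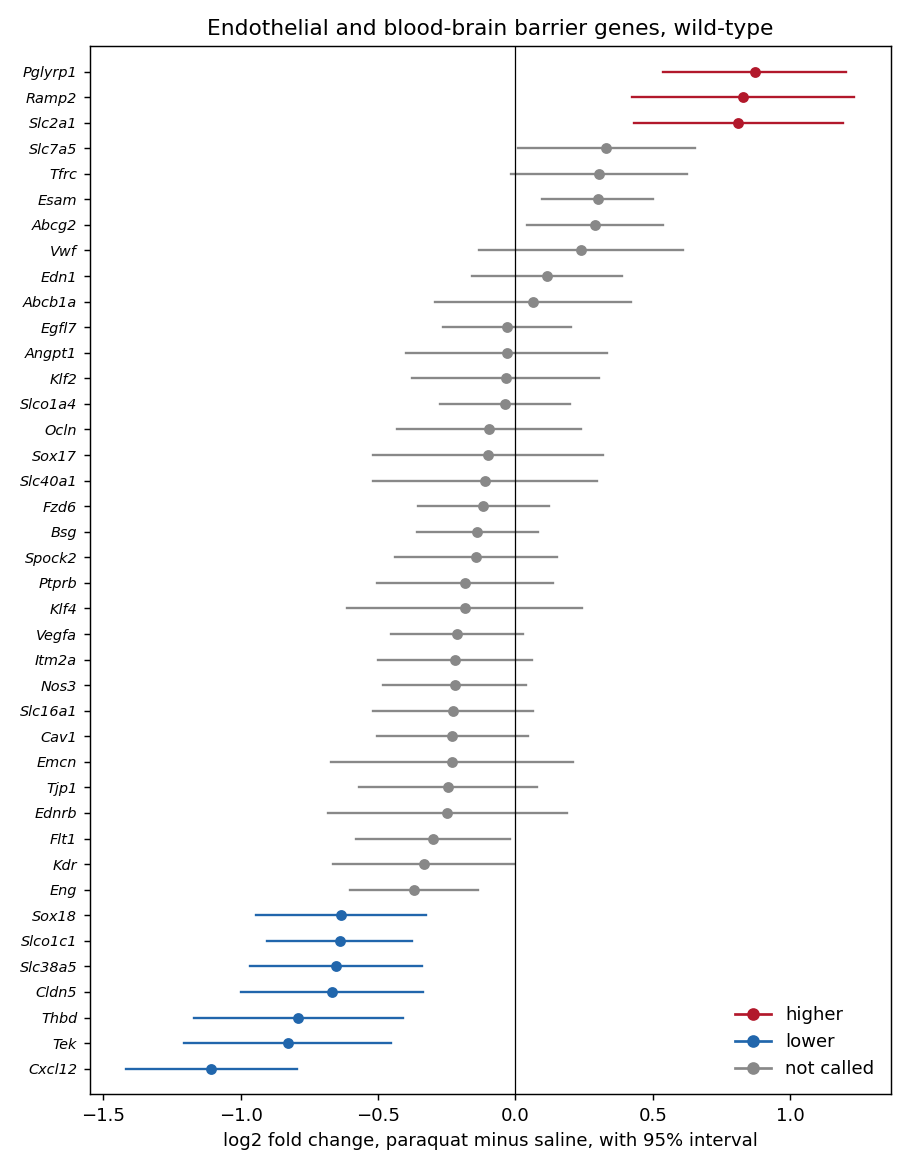
Log2 fold change of paraquat minus saline in wild-type cerebellum for the 40 tested endothelial and blood-brain barrier genes, ordered by size, with limma's 95% interval as a line. Of these, 7 lie below 0 and 3 above it with a call, and 30 of 40 have a value below 0.

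A gene of thyroid hormone activation rose while its carrier Slco1c1 fell. Dio2, the deiodinase of glia that turns thyroxine into the active hormone, read 9.07, 9.24 and 9.09 under paraquat against 8.37, 8.48 and 8.35 under saline, a rise of 0.74 (SE 0.13, adjusted p = 0.0024). Both of its probe sets were called, and the call remained under every alternative run.

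Of 45 SOX, FOX and HOX-type factors tested, 4 were lower, all of the SOX family, and 1, Foxo1, was higher (11.1% in all, against 2% of all genes). Besides Sox18 these were Sox10, the master factor of oligodendrocytes, with -0.62 (SE 0.12, adjusted p = 0.0069), Sox21 with -0.60 (SE 0.12, adjusted p = 0.0081), and Sox9, a factor of astrocytes and Bergmann glia, with -0.45 (SE 0.11, adjusted p = 0.040). Sox2, a stem cell and glial factor, had -0.89 (SE 0.24, adjusted p = 0.057) and so missed the threshold, with 8.30, 8.44 and 8.12 under paraquat against 9.22, 9.35 and 8.97 under saline. Uncx, a homeobox factor, read 7.05, 7.05 and 6.95 under paraquat against 7.62, 7.72 and 7.84 under saline, a fall of 0.71 (SE 0.13, adjusted p = 0.0040). Nkx2-2, a factor of the oligodendrocyte lineage, fell by 0.64 (SE 0.13, adjusted p = 0.011). Uncx and Sox10 were called whichever wild-type array was left out. Sox9 was called only without the second saline array (0.041, against up to 0.27 for the others), Sox21 not without the second or the third saline array (up to 0.065) and Nkx2-2 not without the second paraquat or the first or the third saline array (up to 0.096).

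The extracellular matrix protein tenascin C, Tnc, which Bergmann glia make, read 6.41, 6.38 and 6.39 under paraquat against 7.10, 6.94 and 7.17 under saline, a fall of 0.68 (SE 0.13, adjusted p = 0.0050). Serpinh1, the collagen chaperone of the endoplasmic reticulum, fell by 0.70 (SE 0.14, adjusted p = 0.0075), and its other probe set, with -0.57, was called too. Thbs3, a thrombospondin, rose by 0.69 (SE 0.12, adjusted p = 0.0033), Pcolce2, which enhances procollagen processing, by 1.03 (SE 0.23, adjusted p = 0.017), and Tgm2, a protein-crosslinking transglutaminase, by 0.83 (SE 0.17, adjusted p = 0.0086), with 4 of its 5 probe sets called. Gjb6, connexin 30 of astrocyte gap junctions, read 10.90, 10.86 and 10.82 under paraquat against 9.98, 10.06 and 10.08 under saline, a rise of 0.82 (SE 0.16, adjusted p = 0.0075). Kcnk13, a potassium leak channel of microglia, fell by 0.66 (SE 0.16, adjusted p = 0.037), and Fcgr3, an immunoglobulin receptor of microglia, rose by 0.47 (SE 0.11, adjusted p = 0.020). Tnc, Thbs3 and Gjb6 were called whichever wild-type array was left out. Leaving out any 1 ended the calls of Pcolce2 (adjusted p up to 0.078), Kcnk13 (up to 0.21) and Fcgr3 (up to 0.12). Serpinh1 was not called without the second paraquat or the third saline array (up to 0.063), and Tgm2 not without the first or the second paraquat or the first or the second saline array (up to 0.063).

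None of 16 granule neuron and 14 Purkinje neuron genes was called in either fit, with medians of -0.07 and -0.06, and 0 of them had an unadjusted limma p below 0.05. The mean log2 level of the granule neuron list was 10.72 on each paraquat array, against 10.79, 10.75 and 10.77 on the saline arrays. Of 19 oligodendrocyte and myelin genes, 2 were lower and none higher (10.5%, against 2% of all genes). In the wild-type arrays alone 7 were lower and none higher (36.8%, against 10.2%). The mean level of that list was 10.86, 10.95 and 10.98 under paraquat against 11.13, 11.07 and 11.09 under saline. Of 7 oligodendrocyte precursor genes, 0 were called by limma, 1 with an unadjusted p below 0.05, and the list median was 0.009. For these precursor genes the wild-type arrays alone gave 1 higher and 0 lower (14.3%). Of 22 astrocyte and Bergmann glia genes, 1 was higher (Gjb6) and 1 lower (Sox9), 9.09% in all. Of 17 microglial genes, 1 was higher (Fcgr3) and 1 lower (Cx3cr1), 11.8% in all, and in the wild-type arrays alone 1 was higher and 4 lower (29.4%). Of 9 interneuron and Golgi cell genes, 0 were called by limma, 2 with an unadjusted p below 0.05, and 2 were lower in the wild-type arrays alone. The mean level of that list was 8.38, 8.44 and 8.44 under paraquat against 8.58, 8.51 and 8.56 under saline, with no overlap. No gene was called among 11 pericyte and smooth muscle, 15 meningeal, 11 choroid plexus, 3 leukocyte, 1 erythrocyte and 6 neighbouring-region genes. An unadjusted limma p below 0.05 was found in 3 of them, all meningeal. In the wild-type arrays alone 3 meningeal genes were higher and 2 lower (33.3%). There 1 pericyte and smooth muscle gene was higher (9.09%) and 1 choroid plexus gene was lower (9.09%). Whether a shift in the mix of cells has a part in the falls of Sox9, Sox10 and Nkx2-2 was not tested.

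A few signalling genes downstream of G proteins and small GTPases were called. Rasd1, a small GTPase that dexamethasone induces, rose by 0.73 (SE 0.13, adjusted p = 0.0025), and Rhob, a short-lived GTPase of endosomes, by 0.54 (SE 0.12, adjusted p = 0.017). Rab31, a GTPase of vesicle transport, rose by 0.69 (SE 0.13, adjusted p = 0.0055). Cdc42ep1, an effector of the GTPase CDC42 that shapes the cytoskeleton, read 8.19, 7.88 and 8.35 under paraquat against 8.93, 8.84 and 8.86 under saline, a fall of 0.74 (SE 0.14, adjusted p = 0.0055). Grk5, a kinase that desensitises G protein-coupled receptors, read 6.51, 6.55 and 6.37 under paraquat against 6.98, 7.20 and 7.09 under saline, a fall of 0.61 (SE 0.11, adjusted p = 0.0037). Adcy8, a calcium-stimulated adenylyl cyclase, fell by 0.56 (SE 0.13, adjusted p = 0.021). All of these but Rhob and Adcy8 were called with any 1 wild-type array left out. Adcy8 was not called in any of those fits (0.050 to 0.14), and Rhob only without the second paraquat array (0.041, against up to 0.11). Of 54 G protein-coupled receptors, 30 glutamate, GABA and glycine receptors and 44 sodium, calcium, HCN and chloride channels, none was called by limma, with an unadjusted p below 0.05 in 9, 0 and 2 of them.

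**Figure D4:**
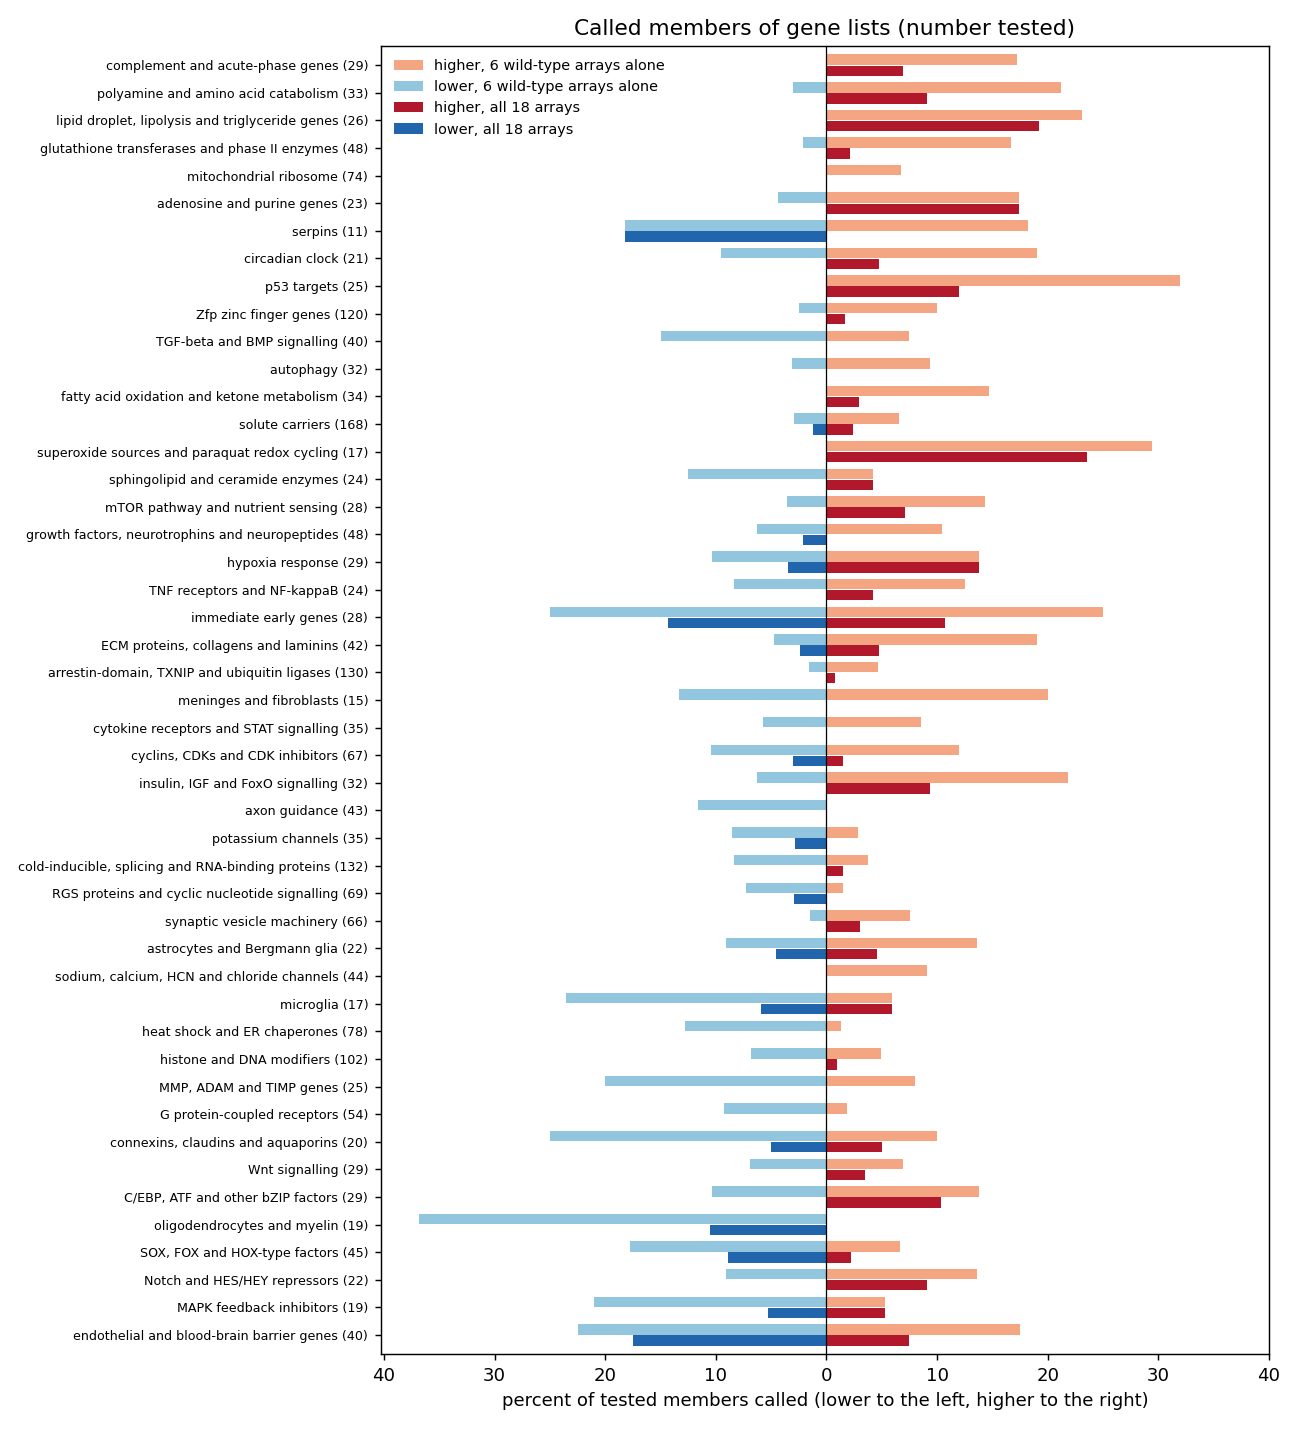
Percent of the tested members of each gene list that were called, lower to the left and higher to the right, with the fit of all 18 arrays in dark colours and the 6 wild-type arrays alone in pale ones. Shown are the lists with at least 4 members called in the wild-type arrays alone, leaving out the glucocorticoid targets and 1 list not reported here, ordered by median log2 fold change; the number tested is in brackets, and over all genes the 2 fits called 2% and 10.2%.

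Of the 74 lists examined, 28 held genes called higher only, 7 lower only, 12 both and 27 none. The list of heat shock and endoplasmic reticulum chaperones was among those with none. It does not include Serpinh1, the collagen chaperone above, which was called lower (-0.70, limma's adjusted p = 0.0075). Of the 78 genes in the list, 0 were called by limma with all arrays, 12 with an unadjusted p below 0.05. In the wild-type arrays alone, however, 10 were lower and 1 higher, 14.1% against 10.2% of all genes. Hspa5, the chaperone BiP, had 11.38, 11.33 and 11.37 under paraquat against 11.86, 12.04 and 11.77 under saline, with -0.53 (SE 0.17, adjusted p = 0.17) with all arrays and an adjusted p of 0.00058 in the wild-type arrays alone. Xbp1, a factor of the unfolded protein response, had -0.52 (adjusted p = 0.17, and 0.00052 alone), Sdf2l1 -0.56 (0.23 and 0.0023), Creld2 -0.48 (0.23 and 0.0020) and Pdia6, a disulfide isomerase, -0.39 (0.13 and 0.0026). Each of these 5 had every paraquat pool below every saline pool, as 11.8% of all genes tested did. Of 44 cytosolic ribosomal, 74 mitochondrial ribosomal and 45 proteasome genes, 0 were called with all arrays and 2, 5 and 2 had an unadjusted p below 0.05, although 40, 62 and 35 of them had a log2 fold change above 0, against 4567 of all 8298 genes. The first paraquat array was the highest for each of the 3 lists, and the third lay close to the saline arrays. The mitochondrial ribosome list averaged 9.37, 9.28 and 9.23 under paraquat against 9.19, 9.19 and 9.23 under saline, the proteasome list 10.094, 10.035 and 9.994 under paraquat against 9.980, 9.950 and 10.001 under saline, and the cytosolic ribosome list 11.55, 11.45 and 11.43 under paraquat against 11.42, 11.39 and 11.41 under saline.

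Single probe sets showed changes that the chosen probe set of a gene hid. Over 14169 probe sets tested, 194 were called, which is 1.37%, with 159 higher (1.12%) and 35 lower (0.247%). The smallest p of all belonged to 1423289_a_at, annotated to Tma16, a factor of translation machinery. It read 8.95 to 9.04 under paraquat and 6.46 to 6.68 under saline, a rise of 2.41 (SE 0.12, adjusted p = 1.4e-09), or 5.32-fold. The probe set with the highest mean for the same gene had a log2 fold change of 0.11, so the 2 probe sets disagree on the size of the change, and which transcript the rising one reads is not known from the annotation. Likewise 1450718_at of Sh2b2, an adapter of insulin and cytokine receptors, read 7.24, 7.30 and 7.27 under paraquat and 5.44, 5.16 and 5.73 under saline, a rise of 1.83 (SE 0.22, adjusted p = 0.00010), against 0.15 at the gene's other tested probe set; its saline pools lay below 6.31, so that the size is uncertain. The probe set 1430295_at of Gna13, a G protein subunit, rose by 0.72 (SE 0.14, adjusted p = 0.011), whereas the gene's 5 other tested probe sets ran from -0.09 to 0.09.

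In all, 11 genes had a called probe set while the chosen one was not called. Those that fell were Kif1b, a kinesin of axonal transport, with -0.67 (SE 0.14, adjusted p = 0.017) at 1455182_at, and Efnb2, ephrin B2, with -0.59 (SE 0.11, adjusted p = 0.010) at 1419638_at. Among 52 genes with a called probe set and at least 1 other tested, all probe sets had the same sign in 51, and 19 had more than 1 called. A further 15 called probe sets have no symbol in the annotation, 13 of them higher. The largest were 1442025_a_at with 2.06 (SE 0.31, adjusted p = 0.00082) and 1453238_s_at with 1.80 (SE 0.21, adjusted p = 6.3e-05), and the lowest was 1443589_at, with 5.88, 6.03 and 5.79 under paraquat against 7.40, 7.54 and 7.12 under saline, a fall of 1.45 (SE 0.29, adjusted p = 0.012). The saline pools of 1442025_a_at and the paraquat pools of 1443589_at and of Kif1b's 1455182_at lay below 6.31. The calls of Tma16 and Sh2b2 remained whichever wild-type array was left out; those of 1443589_at (up to 0.079), Efnb2 (up to 0.073), Kif1b (up to 0.10) and Gna13 (up to 0.075) did not in 4, 4, 6 and 4 of the 6 omissions.

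Promoters of the called genes were searched on both strands from 250 bases before to 50 bases after each RefSeq transcript start, and 138 of the 166 genes matched the promoter table. The whole receptor palindrome, AGAACA and TGTTCT with any 3 bases between them, was in 1 of 108 genes called higher, the Sgk1 promoter printed above, in 0 of 30 called lower, in 0 of 6615 not called, and in 3 of 32851 promoters. Its core hexamer AGAACA, which lies inside the palindrome, was in 15.7% of genes called higher, 16.7% called lower and 14.8% not called. The STAT motif TTCCNGGAA was in 4 of 108 genes called higher (3.7%), in 0 of 30 called lower and in 1.24% of those not called, against 1.15% of all promoters. Those 4 genes are Ada, which deaminates adenosine, Agt, angiotensinogen, Nrros, a negative regulator of reactive oxygen species, and Prodh. Their motifs are shown in capitals with their flanks of GRCm38.p6, all on the - strand, at chr2:163750305-163750345, chr8:124569854-124569894, chr16:32165759-32165799 and chr16:18089223-18089263 in that order, to let the flanks be compared.
Ada: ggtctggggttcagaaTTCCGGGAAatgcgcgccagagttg
Agt: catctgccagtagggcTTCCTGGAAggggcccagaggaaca
Nrros: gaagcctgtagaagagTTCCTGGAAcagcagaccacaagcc
Prodh: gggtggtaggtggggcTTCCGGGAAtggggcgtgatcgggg

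These 4 genes rose by 1.96, 0.52, 1.71 and 0.68 in the order printed. The motif CACGTG was in 15.7% of genes called higher and 23.3% called lower against 12.3% not called, GTAAACA in 3.7%, 3.33% and 3.02%, TGACGTCA in 3.7%, 3.33% and 3.6%, the antioxidant response element, TGAC and GCA with any 3 bases between them, in 1.85%, 0% and 3.17%, and TGCGCNC, the metal response element, in 28.7%, 33.3% and 32.3%. AACAATGG, a SOX motif, was in 2.78%, 0% and 0.68%, and CCGGAAGT, an ETS motif, in 1.85%, 3.33% and 9.57%. TGACGTAA was in 0%, 0% and 1.03%. A match describes letters in this window and is no evidence that a factor binds there.

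The other genotypes share the design but not the wild-type arrays. In the knock-out, paraquat called 188 genes (2.27%), 66 higher (0.795%) and 122 lower (1.47%), and all 166 genes called in wild-type had the same sign there, with a median log2 fold change of 0.52 for the 127 higher and -0.57 for the 39 lower genes, against 0.70 and -0.65 in wild-type; 60 of the higher and 29 of the lower genes were also called in the knock-out. In the transgenic the same medians were 0.10 and -0.21, and each of the 166 genes changed by less there. The genes were chosen by their wild-type change, and that choice by itself favours a smaller change elsewhere. Limma's test of the difference itself called 0 of 8298 genes for knock-out minus wild-type, with 146 at an unadjusted p below 0.05, and 15 (0.181%) for transgenic minus wild-type, all of them with a smaller rise in the transgenic. Of these 15, Spns2 rose by 0.71 in wild-type with -0.06 in the transgenic, a difference of -0.77, and Mrnip, a factor of DNA repair, rose by 0.61 in wild-type with -0.12 in the transgenic, a difference of -0.73. None of the 39 genes that fell was called for a difference.

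**Figure D5:**
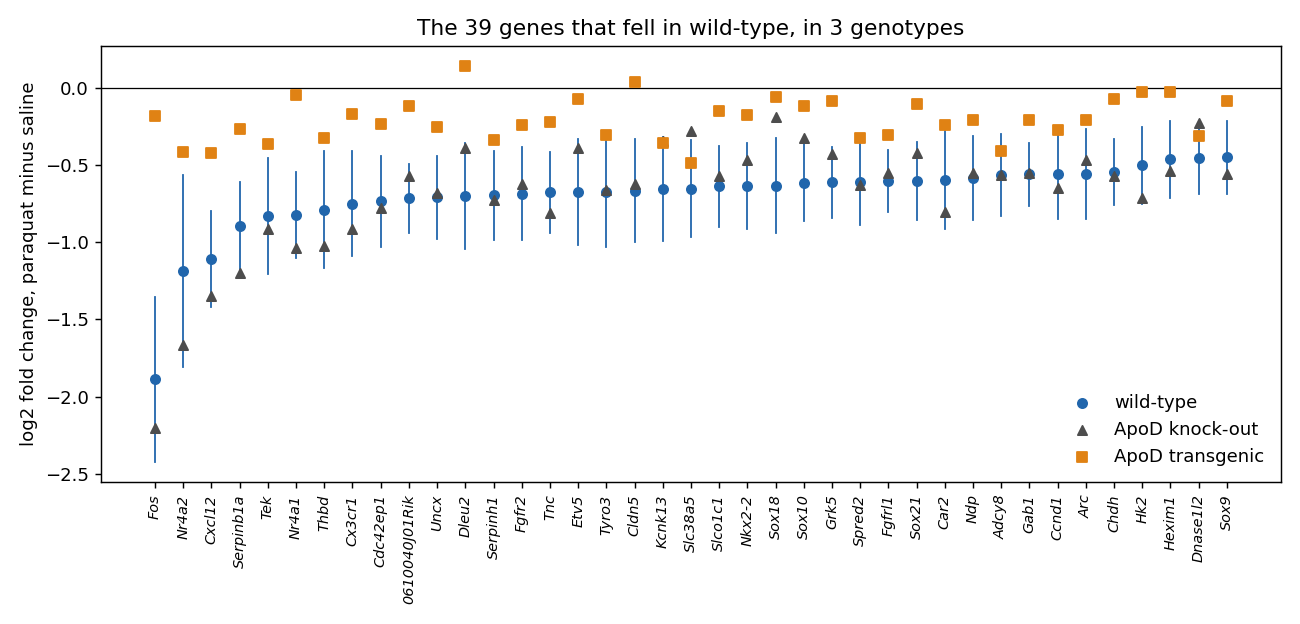
Log2 fold change of paraquat minus saline for the 39 genes called lower in wild-type, in wild-type (circles, with limma's 95% interval), knock-out (triangles) and transgenic (squares). The triangles all lie below 0 and the squares all lie nearer to 0 than the wild-type circles, with Dleu2 and Cldn5 above 0 in the transgenic.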

How the data were processed

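RNA from mouse cerebellum was labelled with biotin and hybridised to Affymetrix 3' expression arrays. The values deposited by the authors are on the log2 scale, 1 per probe set and array, and were made with RMA (background correction, quantile normalisation and summary over probes), per the submitters' processing notes, which give no version. The scale was read from the values, which run from 3.13 to 14.9. Neither a centring per gene nor a ratio with a direction is involved, and which arrays were normalised together is unknown. Scanner files were not used here, so that slide and scan batches and background were not examined, and the number of arrays limits the precision.

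Of 22690 probe sets, 64 were controls, 20380 had 1 gene symbol in the platform annotation, 691 several and 1555 none. Each of 12393 genes was represented by its brightest probe set, judged by the mean of the 18 arrays. Genes were tested where at least 3 arrays read them at or above their own 40th percentile, 8298 in all, and 14169 probe sets were tested in the same way. limma 3.58.1 under R 4.3.3 (lmFit and eBayes, 12 residual degrees of freedom) gave every p, two-sided; the scripts were tested on simulated data. Permuting 3 and 3 arrays gives p-values no smaller than 0.1 and was not done for single genes.

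The samples, the 74 gene lists and the tests were chosen with earlier results of these data known. Lists are described by counts and medians only. Named genes are up to 25 called each way with the largest fold change that an earlier description of these data had not named, at most 4 called genes per list (the 2 smallest p where none was called), up to 12 called probe sets each way that lack a single symbol or whose gene was represented by a probe set not called, and genes called for a difference between genotypes. The cell type markers, Arc, Dio2, Chdh, Bbox1, Pnpla7, F3, Xpa, Agt, Sox2, Hspa5, Xbp1, Creld2, Sdf2l1, Fam117b and Scrg1 fall outside that rule or were named after their values were seen. Promoters are RefSeq's of GRCm38.p6. The alternatives were the wild-type arrays alone, 1 array left out, a replicate block, other filters and normalisations, array weights, another variance prior and the mean of a gene's probe sets.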

Additional observations from a re-analysis of the deposited data

Results flagged for a closer look

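For 15 genes the paraquat effect differed between transgenic and wild-type by limma's test of the difference, and in each the rise was smaller in the transgenic. The log2 differences, transgenic minus wild-type, were -2.06 for Lcn2, -1.86 for Cdkn1a, -1.81 for Fkbp5, -1.70 for Sgk3, -1.55 for Ada, -1.34 for Lrg1, -1.29 for Nrros and -1.21 for Polr3e. They were -1.08 for Pnpla2, -1.05 for Cirbp, -0.99 for Smim3, -0.95 for Mertk, -0.94 for Gadd45g, -0.77 for Spns2 and -0.73 for Mrnip. In wild-type the saline pools of Lcn2, Lrg1 and Ada lay below 6.31, so that the size of their differences is uncertain. Spns2, the sphingosine-1-phosphate exporter, read 8.90, 8.99 and 9.18 in wild-type under paraquat against 8.26, 8.25 and 8.44 under saline, while its paraquat effect in the transgenic was -0.06. The causes of these differences were not tested.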

How the results depend on the processing

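With the 6 wild-type arrays alone, 538 genes were higher and 307 lower (657 and 395 probe sets), and with array weights 721 and 336 (1018 and 538). Leaving out knock-out paraquat array 2 gave 244 and 110 (296 and 110). Leaving out 1 wild-type array gave 64 to 87 genes higher and 15 to 23 lower (64 to 100 and 11 to 17 probe sets). The 60th percentile filter left 22 genes and 16 probe sets lower, quantile normalisation gave 61 and 63, and centring gave 53 probe sets lower. Genes called for transgenic minus wild-type numbered 34 when knock-out paraquat array 2 was left out and 701 with array weights, which called 2 genes for knock-out minus wild-type. With the wild-type arrays alone and without knock-out paraquat array 2, the median log2 fold change over all genes stayed at 0.016. Both fits differ from the reported one in the error term. The cause of the other shifts was not tested. Of the 166 called genes, 66 remained called in each omission of 1 wild-type array (52 higher, 14 lower) and 42 in every alternative run (33 higher, 9 lower). Of the genes and probe sets recomputed, only Alas2, not called, changed sign, with 0.14 without the third paraquat array and -0.30 without the first.

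The titles do not state that the replicate numbers pair samples, so the numbers were not taken as pairs. Arrays of the same number did deviate together, with correlations of 0.0849, 0.148 and 0.335 over genes. Each paraquat array correlated best with the saline array of its own number, whereas the first saline array correlated best with the second paraquat array (0.0993). Whether the numbers mark a batch is not known. With a replicate block, 121 genes were higher and 37 lower over all arrays, 760 and 479 in the wild-type arrays alone (756 and 496 probe sets), and 7 differed for transgenic minus wild-type.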
